A study of Mus musculus with 6 samples.

Results

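The transcription factor p53 (gene Trp53) and 9 genes that it is known to activate, or that are named for it, were followed in activated mouse T cells: Mdm2, Cdkn1a, Ccng1, Bbc3, Phlda3, Trp53inp1, Trp53i11, Sesn1 and Zmat3. The rows of the count tables were found by symbol through their Ensembl identifiers, and all 10 genes were found among the 52550 genes of the table and passed the filter on low counts. The set was chosen by gene name with the fold changes of these same samples known, so the change of its members is described here and not tested.

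RNA was sequenced from splenic CD3+ T cells of wild-type mice after 24 h with antibodies to CD3 and CD28, which activate T cells through the T cell receptor (TCR). In 3 samples the antibodies were given alone (TCR alone) and in 3 samples together with DMGV at 100 ng/ml (TCR+DMGV). DMGV is dimethylguanidino valeric acid, a product of dimethylarginine breakdown. The labels name DMGV, whereas both the text and the legend of the study name LNY1, a factor purified from fibroblast medium, for this sequencing. The time is the same in both, and the legend gives the same dose. In its other cell experiments the study mostly used LNY1 at 100 ng/ml and DMGV in micromolar amounts. The sources do not settle which was added, and the name DMGV follows the labels throughout. The study describes 3 independent biological samples per group. Mice of both sexes were 6 to 8 weeks old when used.

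In most cells p53 protein is made and destroyed continuously, because Mdm2, itself a product of a p53 target gene, marks it for degradation. Damage to DNA or other stress frees p53 from Mdm2, and p53 then binds a response element made of a pair of decamers near its target genes and switches on arrest of the cell cycle, repair or cell death. In T cells it is known for limiting division after activation and for the death of irradiated thymocytes. Because p53 is largely controlled as a protein, its target genes are the usual readout of its activity in RNA.

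Stretches before the starts of 3 targets are shown because some of them hold letters of the p53 response element. RefSeq start windows (250 bases before to 50 bases after a start, GRCm38.p6) were matched for 8 of the 10 genes, in 12 windows. The windows of Trp53inp1 and Zmat3 were not matched. With at most 1 mismatch to the p53 response element without a spacer, which reads alike on both strands, and with the C and the G in the core of both decamers required, 0.067% of 32851 windows of the mouse genome held a match, among them those of Cdkn1a and Ccng1. The numbers of mismatches were chosen after the matches were seen. Capitals mark the matching 20 bases in the Cdkn1a window (chr17:29090879-29090978, plus strand) and in the Ccng1 window (chr11:40755422-40755521, minus strand), each with 1 mismatch. The Cdkn1a window is 1 of 2 start windows of that gene. The stretch shown ends just before the start of the transcript Cdkn1a-202, which held 6.6% of the gene's transcript counts. Cdkn1a-201, with 92.0%, starts further on, at chr17:29093769. The stretch before Trp53i11 (chr2:93187448-93187547, plus strand), the member that differed most between the groups, is shown beside them, with capitals at the reverse complement of GGGCGG.
Cdkn1a promoter: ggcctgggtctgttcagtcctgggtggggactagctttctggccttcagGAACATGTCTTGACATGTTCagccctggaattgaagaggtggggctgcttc
Ccng1 promoter: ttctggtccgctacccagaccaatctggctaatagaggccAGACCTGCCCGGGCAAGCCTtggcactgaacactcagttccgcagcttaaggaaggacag
Trp53i11 promoter: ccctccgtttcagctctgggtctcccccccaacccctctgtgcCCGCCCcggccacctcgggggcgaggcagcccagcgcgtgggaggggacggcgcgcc
With up to 3 mismatches outside those core letters, 1.38% of all windows and 5 of the 12 windows of the set held a match, those 5 belonging to Bbc3, Ccng1, Cdkn1a, Sesn1 and Trp53. On either strand, the letters GGGCGG were in 9 of the 12 windows and in 35.7% of all windows, and CCAAT was in 7 of the 12 and in 37.4% of all. A match of letters in such a window is a description and does not show binding, and elements outside the windows were not searched.

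All 10 genes were transcribed in all 6 samples, at levels that ran over more than an order of magnitude. On the FPKM scale, which divides counts by gene length and library size, Trp53 was highest, with a mean of 50.1 over the 6 samples (45.5 to 53.2), above 95.4% of all genes with a count. Cyclin G1 (Ccng1) followed at 30.2 (25.5 to 34.3) and Mdm2 at 9.10 (8.39 to 10.03). The range of each of these 3 lay apart from that of the next gene in the order. Sesn1 stood at 6.97 and Trp53inp1 at 4.77, with ranges that overlapped, although Sesn1 was above Trp53inp1 in 6 of 6 samples. Trp53i11 (3.79), Phlda3 (3.74) and Cdkn1a (3.61) could not be ordered, since their ranges overlapped and the order changed between samples. The RNA-binding protein Zmat3 (2.18) and the death gene Bbc3 (2.13) were lowest, above 59.1% and 58.9% of detected genes.

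**Figure D1:**
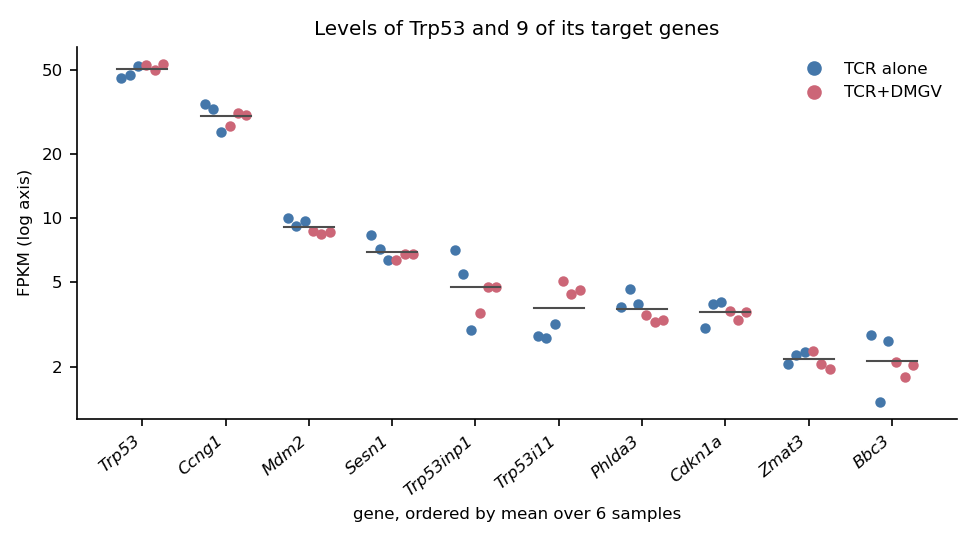
FPKM (log axis) of Trp53 and its 9 targets in the 3 TCR alone samples (blue) and the 3 TCR+DMGV samples (red), with a grey bar at the mean over 6 samples. Trp53 at a mean of 50.1 and Ccng1 at 30.2 stand above all others, and Zmat3 and Bbc3 lie lowest near 2.

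Between the groups, most of the set differed little. The median log2 fold change of the 10 genes, TCR+DMGV over TCR alone, was -0.08, beside 0.0024 over all 14786 genes tested, with 8 of 10 genes below 0 (49.4% of all genes tested were below 0). Trp53i11 stood highest at 0.71 and Phlda3 lowest at -0.29. In edgeR's quasi-likelihood fit of the whole table, 0 of the 10 had an adjusted p under 0.05 and 1 had an unadjusted p under 0.05 (background 0.0135% and 3.19% of genes tested). With DESeq2 the only 1 of the 10 with an adjusted p under 0.05 was Trp53i11 (background 14 of 22526 genes with a count). The groups did not overlap for 3 of the 10 genes, 1 higher and 2 lower in TCR+DMGV (background 8.86% of genes tested, 4.92% higher and 3.94% lower). Nothing is read from these counts, as the same contrast entered the choice of the genes. In these bulk samples, fewer cells that make an RNA and less of that RNA per cell cannot be told apart.

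**Figure D2:**
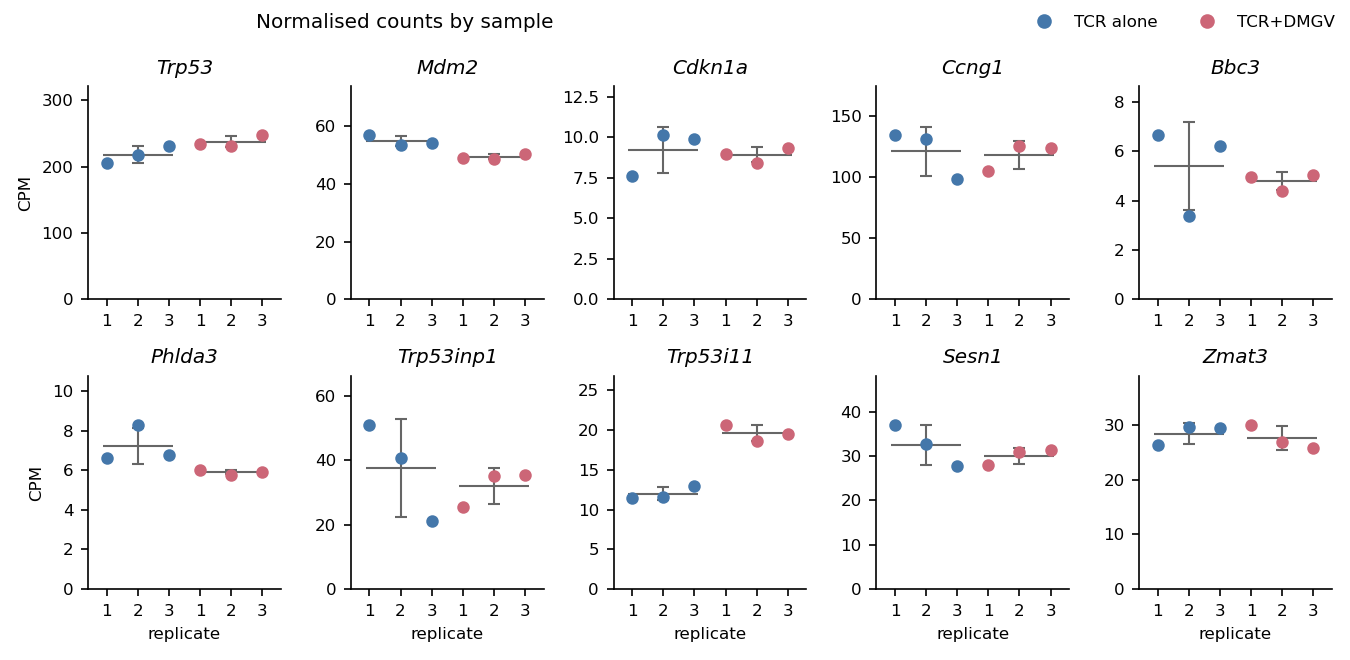
Normalised counts (CPM, counts scaled to library size, axes from 0) of each gene in replicates 1 to 3 of TCR alone (blue) and TCR+DMGV (red). Grey bars give the mean and whiskers the SD of 3 samples. Trp53i11 is higher in all 3 TCR+DMGV samples, at 18.7 to 20.6 against 11.5 to 12.97, while most other genes overlap.

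Trp53 itself (ENSMUSG00000059552.13, chr11:69580359-69591873, plus strand, in GRCm38 as for all genes here) was abundant in both groups. Its normalised counts, in CPM (counts scaled to library size with TMM factors), were 205, 218 and 232 in TCR alone replicates 1, 2 and 3 and 234, 231 and 247 in TCR+DMGV replicates 1, 2 and 3. The groups overlapped, since TCR+DMGV 2 lay just under TCR alone 3. The means were 218 ± 13.4 and 238 ± 8.68 CPM (SD, n = 3 each). The log2 fold change was 0.12 (SE 0.075).

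Mdm2 (chr10:117688875-117710758, minus strand), the ubiquitin ligase that degrades p53, was measured at 56.9, 53.6 and 54.1 CPM in the 3 TCR alone samples and at 49.0, 48.7 and 50.4 CPM in the 3 TCR+DMGV samples. Every TCR+DMGV sample was below every TCR alone sample, but the distance was small, with a log2 fold change of -0.15 (SE 0.079). Its sign was the same under all 17 alternative settings (-0.17 to -0.14), as were those of Trp53, Bbc3, Phlda3, Sesn1 and Trp53i11. These settings refit the same samples, so an unchanged sign is no further evidence.

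The cell cycle targets gave overlapping groups. Cdkn1a (chr17:29090976-29100727, plus strand), which encodes the cyclin-dependent kinase inhibitor p21, stood at 7.58, 10.1 and 9.88 CPM in the 3 TCR alone samples and at 8.99, 8.43 and 9.34 CPM in the 3 TCR+DMGV samples. The TCR+DMGV samples lay within the range of the TCR alone samples, and the log2 fold change was -0.04 (SE 0.153). Ccng1 (chr11:40748552-40755311, minus strand), which recruits a phosphatase to Mdm2, stood at 134, 131 and 98.2 CPM in the 3 TCR alone samples and at 105, 125 and 124 CPM in the 3 TCR+DMGV samples. The lowest samples were TCR alone 3 and TCR+DMGV 1, and the log2 fold change was -0.04 (SE 0.138).

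Of the targets tied to cell death and survival, Bbc3 (chr7:16308393-16318205, plus strand), which encodes the BH3-only protein PUMA, was scarce. Its values were 6.66, 3.38 and 6.21 CPM in the 3 TCR alone samples and 4.97, 4.39 and 5.05 CPM in the 3 TCR+DMGV samples. The TCR alone samples enclosed the TCR+DMGV samples, with 138 counts in TCR alone 2 the lowest and a log2 fold change of -0.17 (SE 0.265). Phlda3 (chr1:135766119-135769136, plus strand), whose product competes with AKT for membrane lipids, gave 6.63, 8.28 and 6.77 CPM in the 3 TCR alone samples and 6.02, 5.78 and 5.93 CPM in the 3 TCR+DMGV samples. The groups did not overlap, although TCR+DMGV 1 and TCR alone 1 were close, and the log2 fold change was -0.29 (SE 0.148).

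Trp53inp1 (chr4:11156431-11174379, plus strand), a stress protein of the nucleus and of autophagy, varied more among samples, in CPM and in FPKM, than any other member. It was measured at 51.0, 40.8 and 21.2 CPM in the 3 TCR alone samples and at 25.6, 35.3 and 35.4 CPM in the 3 TCR+DMGV samples. The highest and the lowest sample, 2.41 times apart, both belonged to TCR alone, and the log2 fold change of -0.23 had an SE of 0.305.

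Trp53i11 (ENSMUSG00000068735.14, chr2:93187548-93201759, plus strand), a gene induced by p53 whose membrane protein is less well understood, differed most. It was measured at 11.5, 11.6 and 12.97 CPM in the 3 TCR alone samples and at 20.6, 18.7 and 19.5 CPM in the 3 TCR+DMGV samples. All 3 TCR+DMGV samples were above all 3 TCR alone samples, and the spread within each group was far smaller than the distance between them (12.0 ± 0.818 against 19.6 ± 0.981 CPM, SD, n = 3 each). The log2 fold change was 0.71 (SE 0.108), or 1.63-fold, and it stayed between 0.54 and 0.77 under all 17 alternative settings. By the edgeR p it was number 8 of the 14786 genes tested (edgeR adjusted p = 0.535). That place is a description and no test, as the gene was chosen with these fold changes known. Of the other 9 genes, the 8 targets had log2 fold changes of -0.29 to -0.04 and Trp53 had 0.12.

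Sesn1 (chr10:41809935-41908424, plus strand), a sestrin that restrains mTORC1 when nutrients or redox state change, stood at 37.0, 32.6 and 27.8 CPM in the 3 TCR alone samples and at 28.0, 31.0 and 31.3 CPM in the 3 TCR+DMGV samples. The groups overlapped (log2 fold change -0.11, SE 0.125). Zmat3 (chr3:32334792-32366014, minus strand), a zinc finger protein that binds RNA and directs splicing, had its highest and lowest sample 1.16 times apart in CPM. Its values were 26.2, 29.6 and 29.4 CPM in the 3 TCR alone samples and 29.97, 27.0 and 25.8 CPM in the 3 TCR+DMGV samples. Both its lowest and its highest sample were TCR+DMGV, and the log2 fold change was -0.04 (SE 0.103).

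Summed counts ran from 37758725 to 43718867 per sample. TCR alone 3 and TCR+DMGV 1 stood apart from the other samples across all genes, on a first principal component that held 32.2% of the variance (42.1 and 42.9 against -34.9 to -10.5). They were the 2 lowest samples for Ccng1, Sesn1 and Trp53inp1, as they were for 17.2% of all genes tested. Transcripts of Trp53inp1 (38.8% GC) and Ccng1 (40.8% GC) had the lowest GC content of the set. After a smooth trend with GC content was removed within each sample, a step added after the data were seen, Trp53inp1 read 38.3, 33.5 and 31.0 CPM in the 3 TCR alone samples and 35.6, 30.9 and 32.3 CPM in the 3 TCR+DMGV samples. The ratio of its highest to its lowest sample thereby went from 2.41 to 1.24. For Ccng1 that ratio went from 1.37 to 1.21, and TCR alone 3 (131 CPM) and TCR+DMGV 1 (133 CPM) became its highest samples. For Sesn1 it went only from 1.33 to 1.29, and for Phlda3 it grew from 1.43 to 1.62. Trp53i11 kept its groups apart, at 12.0 to 12.3 CPM against 18.6 to 20.2 CPM. In a fit without TCR alone 3 and TCR+DMGV 1, 7 of the 10 genes were below 0, and the median log2 fold change of the set was -0.09.

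**Figure D3:**
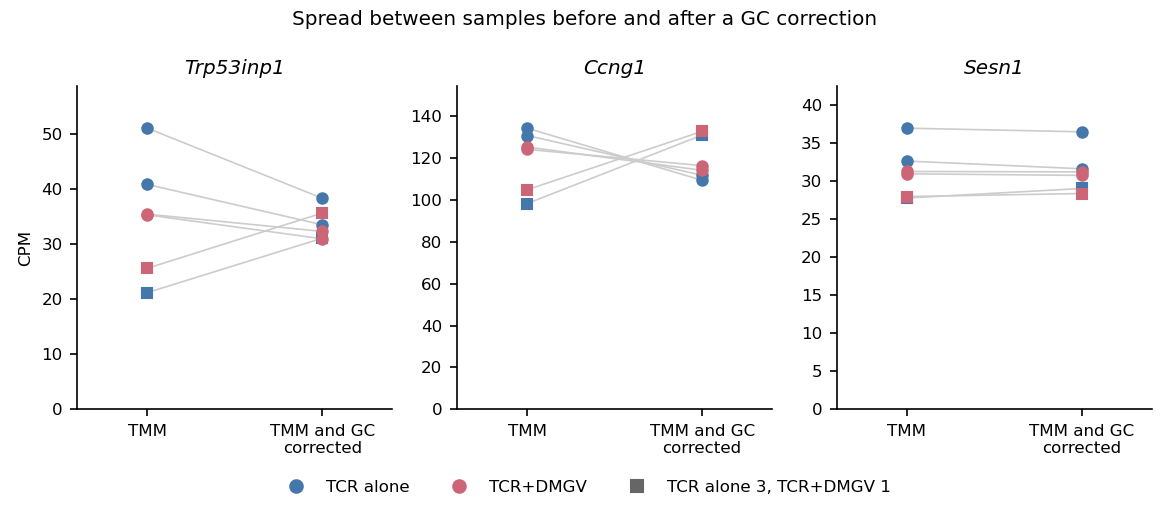
Normalised counts (CPM) of Trp53inp1, Ccng1 and Sesn1 in each sample with TMM normalization alone and after a GC trend was removed. Grey lines join the values of a sample, and squares mark TCR alone 3 and TCR+DMGV 1, which were the lowest pair before the correction for all 3 genes and no longer for Trp53inp1 and Ccng1 after it.

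The annotation holds 45 transcripts for the 10 genes, of which 39 had counts, 29 passed the filter and 19 carried at least 10% of their gene's transcript counts. Reads of transcripts that share exons were divided between them by the authors' software, so the split within a gene is less certain than the gene's total. Of the 29 transcripts, 3 had groups that did not overlap (background 9.25% of transcripts tested): Trp53-202 and Trp53i11-201 were higher and Phlda3-201 lower in TCR+DMGV. With edgeR, 0 of all 38401 transcripts tested had an adjusted p under 0.05 (background 0.0%) and 1235 had an unadjusted p under 0.05. In simulated counts this transcript fit recovered 0% of 200 transcripts changed by a log2 fold of 1, and 10% at a log2 fold of 3. The 0 called therefore does not show that no transcript changed.

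Trp53 was divided between transcripts with 2 endings of the protein. Trp53-202 held 63.4% of the gene's transcript counts, Trp53-201 16.9% and Trp53-203 15.5%. In Trp53-202, and in the minor Trp53-206, the last exon starts 96 bases earlier (chr11:69591254-69591349, plus strand, GRCm38), which replaces the end of the coding sequence, so that 52 coding bases follow where Trp53-201 has 79. This alternatively spliced tail of mouse p53 lacks the lysine-rich end of the usual form. The coding ends are shown in capitals after the 20 bases that both share, since the samples differed in the choice between them (capitals at chr11:69591254-69591305 for Trp53-202 and chr11:69591350-69591428 for Trp53-201).
Trp53-202 end: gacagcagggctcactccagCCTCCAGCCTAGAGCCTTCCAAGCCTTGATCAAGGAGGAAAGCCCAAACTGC
Trp53-201 end: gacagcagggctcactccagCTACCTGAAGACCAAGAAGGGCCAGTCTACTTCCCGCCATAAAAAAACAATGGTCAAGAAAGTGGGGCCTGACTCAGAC
Of the counts of Trp53-201, Trp53-202, Trp53-203 and Trp53-206 together, the transcripts with the extended last exon held 73.9%, 76.1% and 30.6% in TCR alone 1, 2 and 3 and 73.3%, 74.8% and 72.0% in TCR+DMGV 1, 2 and 3. Of the 6 samples, 5 thus lay within a few points of each other and TCR alone 3 stood far below, with 2773 counts for the extended and 6278 for the short form. In transcript FPKM the same sample was at 29.9% and the others at 71.5% to 75.6%. The mean was 60.2% ± 25.7 in TCR alone and 73.4% ± 1.4 in TCR+DMGV (SD, n = 3 each), and 74.0% ± 1.5 over the 5 samples without TCR alone 3. Trp53-202 did not overlap between groups (148, 165 and 47.2 CPM against 169, 169 and 173 CPM), with a log2 fold change of 0.50 whose SE was 0.453. Such jumps occurred in all samples: of 3205 genes with at least 500 counts in every sample and 2 or more transcripts of at least 10%, 1.37% to 2.0% per sample had a leading transcript share more than 30 points outside the other 5 samples, and 1.68% did so in TCR alone 3. The total of Trp53 in that sample, 232 CPM, was within the range of the others.

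**Figure D4:**
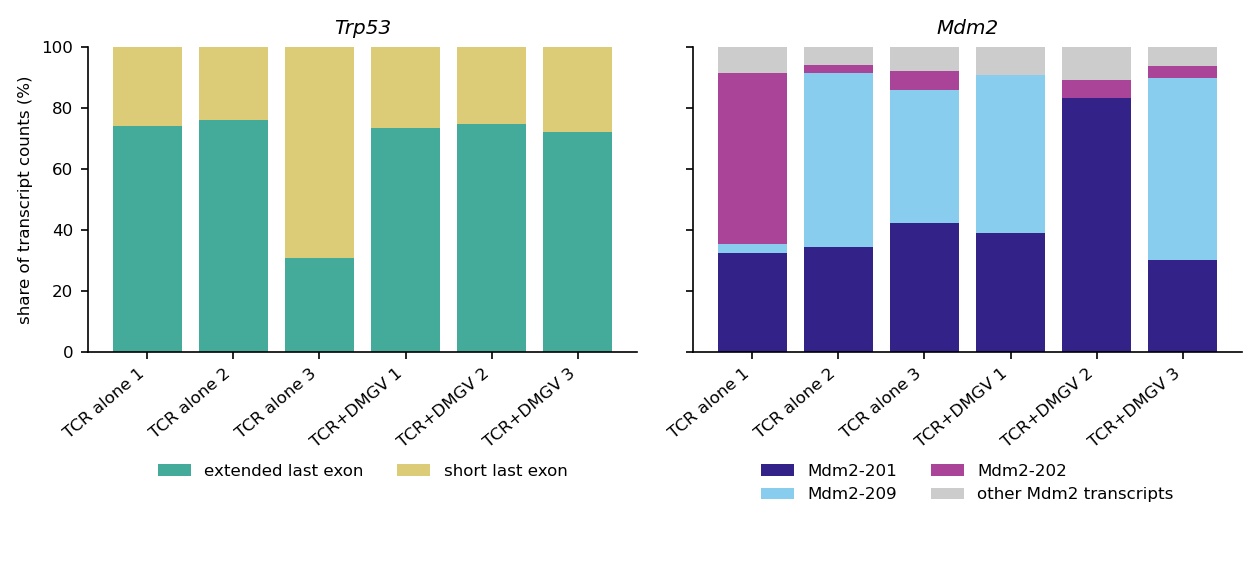
Share (%) of the extended and the short last exon in the counts of Trp53-201, Trp53-202, Trp53-203 and Trp53-206 (left) and of each transcript in the counts of Mdm2 (right) in each sample. The extended form of Trp53 lies at 72.0% to 76.1% in 5 samples and at 30.6% in TCR alone 3, and the Mdm2 shares differ as much within as between groups.

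The split of Mdm2 among its transcripts also varied between samples. Mdm2-201, which codes for the full protein, held 43.4% of the counts, Mdm2-209 35.9% and Mdm2-202 12.6%. Mdm2-209, annotated as a target of nonsense-mediated decay, has 10 exons and another start, beside the 12 exons of Mdm2-201. It lacks an exon of 97 bases (chr10:117695953-117696049, minus strand, GRCm38), printed here as 1 difference between the 2 leading transcripts.
Mdm2-201 exon: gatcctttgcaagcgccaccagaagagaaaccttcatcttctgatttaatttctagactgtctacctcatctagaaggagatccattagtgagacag
The counts of Mdm2-201 were 696, 747 and 948 in TCR alone and 848, 1747 and 598 in TCR+DMGV. Those of Mdm2-209 were 65, 1248 and 976 in TCR alone and 1133, 0 and 1191 in TCR+DMGV. Mdm2-202, which extends an exon by 46 bases and codes from 1320 bases in place of 1467, had 1216 counts in TCR alone 1 and between 5 and 138 in the other samples. Each of TCR alone 1 and TCR+DMGV 2 thus had nearly no Mdm2-209, while the total of Mdm2 moved little, and no transcript set the groups apart.

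Each of the other genes had 1 leading transcript by summed counts, less clearly so for Trp53inp1 and Bbc3. Ccng1-201, Phlda3-201, Zmat3-201 and Cdkn1a-201 held 100.0%, 100.0%, 98.6% and 92.0% of their genes' counts. Sesn1-201 held 87.1%, with Sesn1-202, which starts at another first exon, at 12.9% (2.5% to 21.9% by sample). Trp53inp1-201 held 65.1% and the noncoding Trp53inp1-202 33.5%, and the latter was lowest in TCR alone 3 (142 counts against 289 to 787 in the others). In TCR+DMGV 1 these 2 transcripts were close, at 51.9% and 47.2%. Bbc3-201 held 68.4%, the retained intron form Bbc3-203 21.1% and Bbc3-202 10.5%. In transcript FPKM, Bbc3-201 held 45.9% on average. There it was below Bbc3-203 in TCR alone 2 (33.9% and 44.9%) and in TCR+DMGV 3 (27.4% and 39.5%).

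For Trp53i11 the leading transcript gave the same picture as the gene. Trp53i11-201, with 75.3% of the gene's counts, was counted 325, 318 and 444 times in the 3 TCR alone samples and 634, 726 and 524 times in the 3 TCR+DMGV samples, with no overlap between groups (log2 fold change 0.71, SE 0.225). Trp53i11-202, which has the same coding sequence and 19.2% of the counts, was counted 78, 118 and 42 times without and 249, 46 and 224 times with DMGV. It was high in TCR+DMGV 1 and 3 only, so its groups overlapped. Its share of the gene was 16.9% in TCR alone and 20.6% in TCR+DMGV on average.

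The wider pathway was read from lists written with earlier results of these data known. Of 31 regulators of p53 (kinases, acetylases, ubiquitin ligases and partners that bind it), 29 were tested, and Trp73 and Trp63, the other members of the family, were not, with at most 4 counts and 0 counts. None of the 29 passed edgeR's or DESeq2's adjusted threshold, 0 had an unadjusted edgeR p under 0.05 (background 3.19%), and in none did the groups fail to overlap (background 8.86%). Of them 24 were below 0 (49.4% of all genes tested were below 0), and the median log2 fold change was -0.06. The median deviation of the list from the mean over samples was 0.131, 0.019 and -0.051 in TCR alone 1, 2 and 3. It was -0.016, 0.019 and -0.04 in TCR+DMGV 1, 2 and 3, so the groups overlapped and TCR alone 1 stood highest. Without TCR alone 1 the median log2 fold change was -0.038, with 20 of 29 genes below 0. Mdm4, the partner of Mdm2, stood at 74.1 ± 9.83 CPM without and 71.2 ± 4.79 CPM with DMGV (SD, n = 3 each). The chaperone Daxx had the smallest p of the list, at 59.2 ± 13.01 against 46.4 ± 1.89 CPM (log2 fold change -0.35, edgeR adjusted p = 0.9995). It was followed by the kinases Hipk2 (78.0 ± 8.61 against 68.3 ± 4.01 CPM) and Prkdc (72.3 ± 11.1 against 63.4 ± 2.80 CPM), which both phosphorylate p53 and overlapped between the groups.

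**Figure D5:**
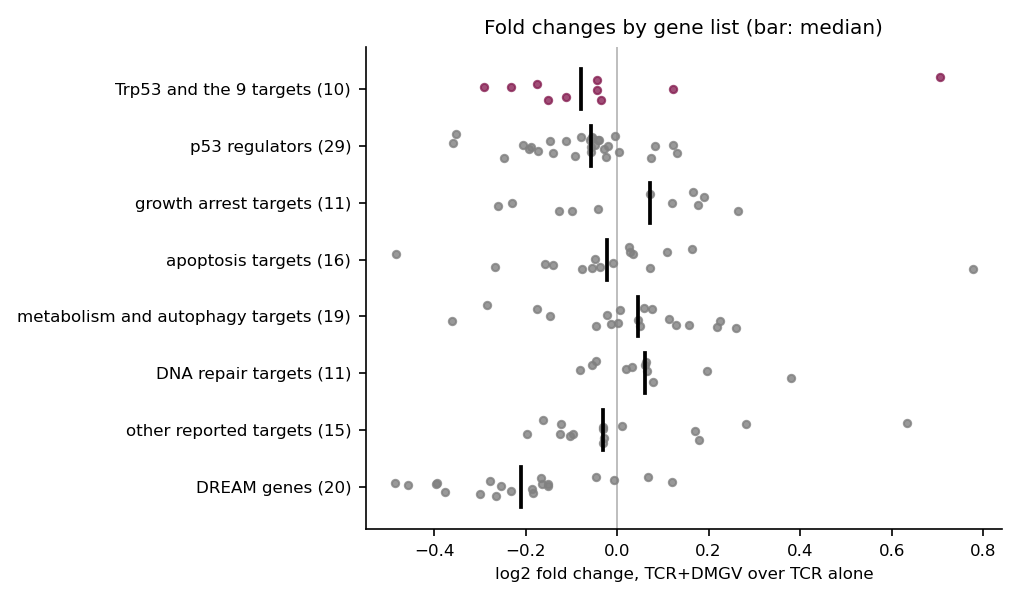
Log2 fold changes, TCR+DMGV over TCR alone, of the tested genes of each list (number tested in parentheses, points spread vertically for sight), with a bar at each median. The set has its median at -0.08 with Trp53i11 at 0.71 far to the right, the other target lists are spread around 0, and the DREAM genes have their median at -0.21.

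Of 83 further target genes of p53, 72 were tested, 38 above and 34 below 0, and the median log2 fold change was 0.009. None passed the adjusted threshold of edgeR or DESeq2, and 2 had an unadjusted edgeR p under 0.05, 1 in each direction (background 3.19%). The groups did not overlap for 8 of the 72, 3 higher and 5 lower (background 8.86%, 4.92% higher and 3.94% lower). Of these 8, 5 were among the 11 growth arrest targets, 2 higher and 3 lower. Nothing is read from that number. A further 8 of the 83 had 0 counts in all samples, among them Eda2r and the noncoding Trp53cor1. By role, the median was 0.07 over 11 growth arrest targets, -0.02 over 16 apoptosis targets, 0.04 over 19 targets of metabolism and autophagy, 0.06 over 11 repair targets and -0.03 over 15 others.

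Among the arrest targets, Btg2, an antiproliferative partner of deadenylases, stood at 28.4, 31.7 and 34.4 CPM in the 3 TCR alone samples and at 35.7, 34.7 and 35.6 CPM in the 3 TCR+DMGV samples (log2 fold change 0.17, edgeR adjusted p = 0.9995). The atypical repressor E2f7 was lower without overlap (12.2 ± 1.22 against 10.4 ± 0.231 CPM), and the kinase Plk2 was higher without overlap (8.02 ± 0.981 against 9.63 ± 0.936 CPM). Gadd45a was scarce, at 1.69 ± 0.134 and 1.41 ± 0.236 CPM, and the kinase Plk3 stood at 51.4 ± 4.92 and 58.1 ± 2.44 CPM (SD, n = 3 each throughout).

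Among the death targets, Bax, which opens the outer mitochondrial membrane, stood at 62.9 ± 6.74 CPM without and 56.4 ± 5.33 CPM with DMGV. Bid, which activates Bax, stood at 74.0 ± 2.12 and 70.1 ± 1.68 CPM. The death receptor Fas stood at 13.9 ± 1.69 and 14.2 ± 0.983 CPM, and Pmaip1, which encodes the BH3-only protein NOXA, at 6.84 ± 2.07 and 5.69 ± 1.805 CPM. The nuclease Aen had the largest fold change of the list, 0.78, but its TCR alone samples ran from 21.4 through 40.6 to 74.4 CPM and reached the TCR+DMGV samples at 83.7, 74.1 and 76.0 CPM (edgeR adjusted p = 0.9995).

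Lpin1 and Prkab1 were the 2 further targets with an unadjusted edgeR p under 0.05. Lpin1, a phosphatidate phosphatase, stood at 26.3, 23.8 and 25.1 CPM in the 3 TCR alone samples and at 19.95, 17.5 and 21.1 CPM in the 3 TCR+DMGV samples. Prkab1, a subunit of AMP-activated kinase, stood at 35.8, 34.7 and 38.2 CPM in the 3 TCR alone samples and at 43.4, 40.3 and 42.6 CPM in the 3 TCR+DMGV samples. Neither pair of groups overlapped, and both genes had an edgeR adjusted p of 0.9995. Fdxr (35.5 ± 2.57 against 39.6 ± 1.62 CPM), Sesn2 (21.5 ± 0.839 against 19.1 ± 1.75 CPM), Tigar (39.8 ± 1.55 against 41.0 ± 1.79 CPM) and the ribonucleotide reductase subunit Rrm2b (11.6 ± 3.91 against 12.1 ± 1.53 CPM) overlapped between the groups. So did the repair genes Rnf169 (13.5 ± 1.34 against 15.4 ± 0.634 CPM), Mgmt (2.97 ± 0.936 against 3.87 ± 0.522 CPM) and Xpc (28.7 ± 2.12 against 30.4 ± 2.44 CPM). Of the remaining targets, the 3 of smallest p, Ckap2 (36.2 ± 4.93 against 31.6 ± 3.75 CPM), Tap1 (210.9 ± 6.84 against 197 ± 17.3 CPM) and Abhd4 (7.49 ± 0.379 against 8.48 ± 1.42 CPM), also overlapped.

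Cell cycle genes bound by the DREAM complex, which represses them when p21 is induced, stood mostly lower in TCR+DMGV, though none passed the test. Of 20 such genes, all tested, 18 were below 0 (49.4% of all genes tested were below 0), and the median log2 fold change was -0.21. The groups did not overlap for 7 of the 20, all lower (background 3.94%), and 7 had an unadjusted edgeR p under 0.05, all lower (background 1.56%). None passed the adjusted threshold of edgeR (adjusted p = 0.9995 for each) or of DESeq2. The cyclin Ccna2 stood at 192, 167 and 141 CPM in the 3 TCR alone samples and at 126, 135 and 124 CPM in the 3 TCR+DMGV samples. Ect2, which starts cytokinesis, stood at 36.7 ± 5.59 against 27.9 ± 1.49 CPM, and the mitotic kinase Aurkb at 52.0 ± 3.04 against 44.3 ± 1.76 CPM (SD, n = 3 each). The median deviation of the list from the mean over samples was 0.12, 0.17 and 0.005 in TCR alone 1, 2 and 3 and -0.15, -0.09 and -0.06 in TCR+DMGV, so the groups differed in sign while TCR alone 3 lay near 0. Without TCR alone 3 and TCR+DMGV 1 the median log2 fold change of the list was -0.165, with 17 of 20 genes below 0. Cdkn1a, the gene of p21, overlapped between the groups. The part of p21 or of the DREAM complex in these values was not tested.

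The labelled cell type was checked against markers. All 12 T cell markers were tested, with summed levels of 1604 to 1823 FPKM in TCR alone and 1699 to 1869 FPKM in TCR+DMGV, and 11 of the 12 were above 0 in log2 fold change while none passed the adjusted edgeR threshold. Of 10 B cell markers 7 were tested, with sums of 118 to 132 FPKM in TCR alone and 116 to 123 FPKM in TCR+DMGV, nearly all of it Ighm (109 to 126 FPKM). The 12 myeloid markers summed to 2.95 to 4.89 and 3.17 to 4.54 FPKM, with Clec9a, Siglech and Cd14 at 0, and all 7 neutrophil markers were at 0 in every sample. The 6 NK cell markers summed to 0.804 to 0.969 FPKM in TCR alone and 0.984 to 1.245 FPKM in TCR+DMGV. The 8 erythroid markers summed to 5.10 to 5.91 FPKM in TCR alone and 2.43 to 4.69 FPKM in TCR+DMGV. The 7 stromal and endothelial markers summed to 4.65 to 5.42 and 4.93 to 5.31 FPKM, with Col3a1, Dcn, Pdgfra and Cdh5 at 0. Nearly all of that sum was Pecam1 (4.635 to 5.403 FPKM over all samples). The sums of NK cell and erythroid markers did not overlap between groups, and their part in the values of the p53 set was not tested.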

How the data were processed

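RNA of 6 samples of splenic CD3+ T cells was compared, 3 TCR alone and 3 TCR+DMGV, grouped by their labels. Libraries were made from polyadenylated RNA. Per the labels, the reads were mapped with HISAT2 2.0.4, and the submitters' processing notes name mm9. The study's methods name SOAPnuke for filtering and StringTie for expression. The authors deposited whole-number counts, not normalized, and FPKM values per gene and per transcript. The step from StringTie to counts, and whether counting used strand, is not given in the sources used here. Near-identical or overlapping genes are therefore uncertain, among the set Cdkn1a (AC167363.2 on the opposite strand) and Sesn1 (9930024M15Rik on the same strand).

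The tables hold no coordinates. Identifiers were matched to GENCODE M21 (GRCm38), which gave symbols to 99.7% of genes. Summed counts ran from 37758725 to 43718867 per sample, above the read depth that the labels state, so 1 count cannot be equated with 1 fragment. Over genes as a whole, with counts taken as fragments, every pair of samples differed by more than sampling noise (median chi-square per gene 3.88 or more). For scarce members such as Phlda3, with 235 to 338 counts, counting error was not shown to be small beside the spread between samples.

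The members and all lists were chosen with earlier results of these data known. Genes and transcripts were fitted over the whole tables with edgeR 4.0.16 (quasi-likelihood, two-sided, TMM, default filter, Benjamini-Hochberg adjustment, threshold 0.05) in R 4.3.3. Members are described by their fitted values, without a test, and an exact permutation test of 3 against 3 samples cannot go below 0.1. CPM use TMM factors. Named were all 10 members, the 3 genes of smallest p in each of 7 lists of the pathway, 9 regulators and targets by name, and transcripts with at least 10% of their gene's counts.

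Alternatives were DESeq2 1.42.0, other size factors, all genes with at least 1 count, the replicate number as a block, limma 3.58.1 on log2(FPKM + 1) and log2(FPKM + 0.1), summed transcript counts, each sample left out, both samples that stand apart left out or given a term, and a GC correction (loess, span 0.3, on genes with mean log2 CPM above 3). Fits were tested on simulated data. With 200 genes changed by a log2 fold of 1, the gene fit recovered 62.5% of them. With a GC trend added to the samples that stand apart, it recovered 21.5%. A gene or transcript that did not pass the threshold is therefore not shown to be unchanged. Python 3.11.15, pandas 2.3.3 and matplotlib 3.10.9 were used.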

Additional observations from a re-analysis of the deposited data

How the results depend on the processing

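The medians of the set, the regulators and the DREAM genes stayed below 0 under all settings tried. The 2 genes of the whole table past the adjusted threshold with edgeR became 14 with DESeq2, 12 without both samples that stand apart, 1 with library size alone, 1 with all genes that have a count, 1 with the GC correction, 0 on log2(FPKM + 1) and on log2(FPKM + 0.1), and 0 to 5 when each sample was left out in turn (5 without TCR+DMGV 1, 0 without TCR alone 1, 2 or 3 or TCR+DMGV 2). Transcripts past it numbered 0 to 1 with each sample left out. The median log2 fold change of the set lay between -0.109 and -0.021 with each sample left out, the latter without TCR alone 1. That of the further targets, 0.009, lay between -0.010 and 0.025 with each sample left out, at -0.017 without both samples that stand apart and at -0.013 with the GC correction, so its sign was not settled. That of the regulators lay between -0.117 and -0.038 with each sample left out and at -0.125 without both, and that of the DREAM genes between -0.249 and -0.179. Ordered by CPM in place of FPKM, 5 of the 10 genes kept their place. After group means were removed, the correlations of same-numbered samples were -0.154, 0.121 and -0.148. With 3 samples per group these values can neither show nor exclude a pairing by replicate number. TCR alone 3 correlated best with TCR+DMGV 1, at 0.31. With the replicate number as a block, 0 genes passed and the median of the set was -0.074. Of the 170 fold changes of single members under an alternative, 169 kept their side of the threshold, the exception being Trp53i11. The sign changed under at least 1 alternative for Cdkn1a, Ccng1, Trp53inp1 and Zmat3. The causes were not tested. The part of depth in these values was not tested.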
